A study of Stylophora pistillata with 24 samples.

Results

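The comparison described here sets 3 libraries of translocated juveniles of the reef-building coral Stylophora pistillata against 3 libraries of planulae, the swimming larvae, of the shallow reef. The translocated juveniles (labelled shallow to deep) had been taken as planulae from the shallow reef, were moved to the mesophotic reef at 45 m and were sampled there as juveniles of 8 days. The planulae (labelled shallow native) were taken from the natural reef at 5 m, and their age in days is not given in the labels. Members were chosen by their labels, 6 of the 24 libraries of the series, and all 33281 genes of the count table were considered, of which 25735 had enough counts to be tested. The 3 control juveniles of 8 days, settled and grown at 5 m, are used for 1 test of the difference between depths. All samples were whole organisms, with no genotype, strain or added agent in the labels, and poly(A) RNA was sequenced. Juveniles were held in plastic settlement chambers in the sea and planulae were not, so settlement and growth, the chambers and the move to 45 m cannot be told apart in this comparison. The labels do not say whether the 3 samples of a group came from separate colonies or broods. A p-value here reflects how much samples vary within the 8 groups of the series, as all 24 libraries were fitted together. That variation may be technical alone. Because whole animals were sequenced, fewer cells of a type and less RNA per cell cannot be told apart.

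A coral planula is a ciliated larva that swims, senses light and surface cues and lives on maternal reserves, in this species together with algal symbionts inherited from the mother. At settlement it attaches, flattens and metamorphoses into a primary polyp with a mouth, tentacles and mesenteries, and the calicoblastic cells of its base begin to deposit an aragonite skeleton within an organic matrix. Calcification draws on carbonic anhydrases, which interconvert carbon dioxide and bicarbonate, and on secreted acidic and adhesive matrix proteins.

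The translocated libraries held 31593536, 23561625 and 20197181 counts and the planula libraries 21133013, 26243412 and 22489823 counts. The 20 most abundant genes took 11.5% to 15.2% of the counts of translocated juveniles and 26.7% to 31.3% of those of planulae. Together gene15504 and gene15503 took 3.78% to 6.79% of the counts of translocated juveniles and 14.1% to 17.5% of those of planulae. Values below are CPM, a gene's counts relative to the library's total after scaling by edgeR's trimmed mean of M-values (TMM); they are not divided by gene length. The scaling factors were 1.10 to 1.17 in translocated juveniles and 0.558 to 0.626 in planulae. Scaling by library totals in place of TMM added 0.95 to the median log2 fold change of all genes, from 0.17 with TMM to 1.13, so the division of changes into rises and falls rests on this choice. Planula replicate 1 stood apart from the other planulae: on the first principal component, with 33.8% of the variance of all 24 libraries, it lay at 177.6, against 227.4 and 222.9 for planula replicates 2 and 3 and -53.2 to -38.0 for the translocated juveniles. It was the planula library nearest the juveniles in 52.6% of the genes that rose and 59.5% of those that fell; counts of calls without it are given beside each gene list, and what sets it apart was not tested.

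Of the 25735 genes tested, 10694 (41.6%) differed between translocated juveniles and planulae at an adjusted p below 0.05 in edgeR's quasi-likelihood test. Fold changes are given as log2 values ± the standard error of the fit. The calls were 5672 genes that rose (22.0% of those tested) and 5022 that fell (19.5%). With library totals the split was 12443 higher (48.4%) and 1919 lower (7.46%): all 5672 rises were called again, whereas 1919 of the 5022 falls were, and 1256 of the falls had a positive log2 fold change. A change significantly larger than 2-fold was found for 3217 rises (12.5%) and 2170 falls (8.43%). Without planula replicate 1, 5610 genes rose and 4834 fell. Large changes were more often rises: 1497 called rises and 396 called falls exceeded 16-fold. In 14684 of the 25735 genes tested (57.1%) no translocated juvenile library overlapped a planula library. Lack of overlap was also a condition for naming the largest rises and falls, so for those genes it is no separate result. Most other named genes were chosen by small p in these same libraries, which favours lack of overlap. Statements below that groups did not overlap therefore add little to the tests. An informative product name was missing for 2239 of the rises and 1430 of the falls, which are not described further. The names used here were assigned by homology and mostly end in -like in the annotation, and the roles given are those of the named proteins, mostly from other animals.

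**Figure D1:**
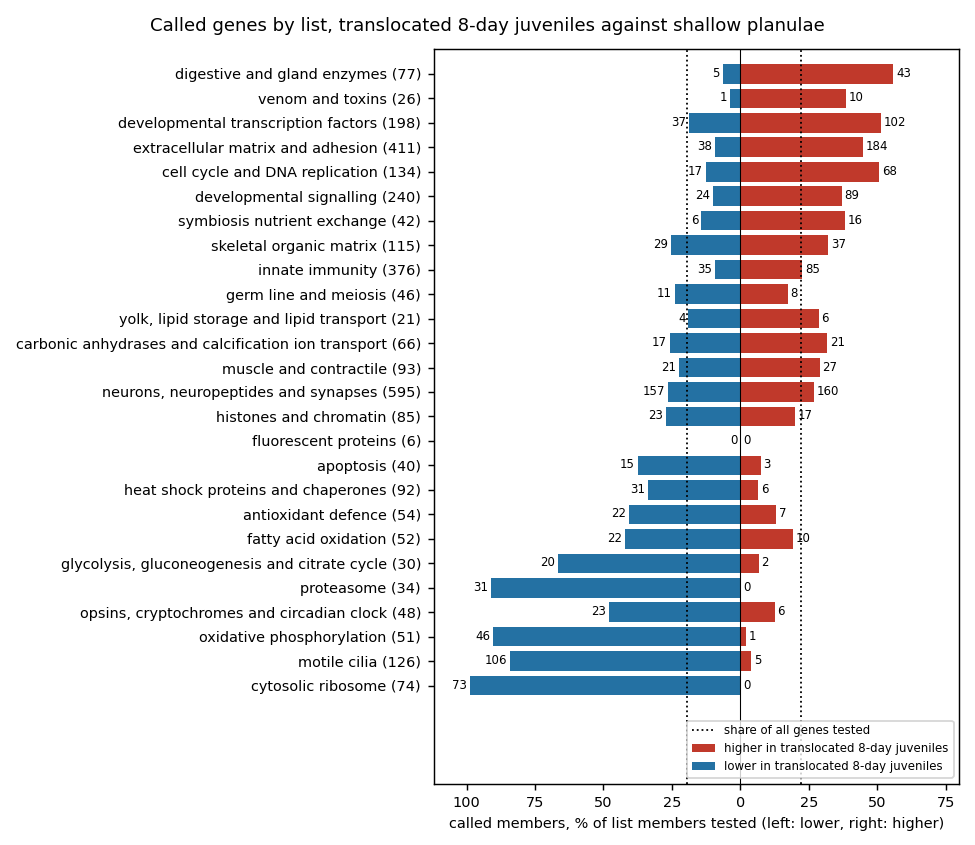
Share of tested members of each gene list (number tested in parentheses) that were called higher (red, right) or lower (blue, left) in translocated 8-day juveniles than in shallow planulae, with the number called beside each bar; dotted lines mark the shares among all genes tested, 22.0% higher and 19.5% lower. Digestive enzymes (43 higher, 5 lower) stand at the top and cytosolic ribosomal proteins (0 higher, 73 lower) at the bottom; the lists are ordered by median log2 fold change.

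Genes of skeleton formation included some of the largest rises of the comparison. A carbonic anhydrase 2-like gene (gene18335) stood at 2342, 3155 and 2357 CPM in translocated juveniles, against 0.454, 0.0666 and 0.319 CPM in planulae (log2 fold change 13.20 ± 1.61, adjusted p = 2.79e-06). Further carbonic anhydrases that rose were gene25725 and gene8642. In translocated juveniles gene25725 had 491, 761 and 559 CPM, against 2.87, 4.197 and 10.4 CPM in planulae (log2 fold change 6.70 ± 0.63, adjusted p = 1.36e-07). In translocated juveniles gene8642 had 64.8, 65.3 and 58.2 CPM, against 0.378, 0 and 0.637 CPM in planulae (log2 fold change 7.57 ± 0.72, adjusted p = 1.41e-07). Another, gene19428, had 65.2, 116 and 87.8 CPM in translocated juveniles and no count in any planula library, a rise of at least 404-fold against a floor of 3 counts per library (adjusted p = 0.000816). In all 4 genes every juvenile library lay far above every planula library.

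Other members of the family changed less or fell. Of its 24 tested genes 11 rose and 3 fell, and 10 were not called; the rises and falls were 18 and 1 with library totals, 9 and 3 without planula replicate 1. The main planula forms were a carbonic anhydrase 1-like gene (gene25727), with 371, 455 and 324 CPM in translocated juveniles and 3814, 3602 and 3944 CPM in planulae (log2 fold change -3.30 ± 0.72, adjusted p = 0.00102), and a carbonic anhydrase 2-like gene (gene14037), with 1024, 1496 and 1195 CPM in translocated juveniles and 2265, 2753 and 2861 CPM in planulae (log2 fold change -1.08 ± 0.41, adjusted p = 0.0392). The weakly expressed gene11665 also fell, with 2.36 ± 0.922 CPM in translocated juveniles and 7.14 ± 0.233 CPM in planulae (SD, n = 3 each). In each of these 3 genes every juvenile library lay below every planula library in TMM-scaled CPM. With library totals the log2 fold changes were -2.34 for gene25727, -0.12 for gene14037 and -0.63 for gene11665. Further rises were smaller, such as gene25728, with 523, 372 and 265 CPM in translocated juveniles and 144, 72.95 and 109 CPM in planulae (log2 fold change 1.83 ± 0.41, adjusted p = 0.00125), and gene19426, with 25.3, 45.4 and 30.8 CPM in translocated juveniles and 2.27, 5.396 and 3.59 CPM in planulae (log2 fold change 3.17 ± 0.80, adjusted p = 0.00351). The beta carbonic anhydrase 1-like gene9902 averaged 6.54 ± 0.833 CPM in translocated juveniles and 6.26 ± 1.48 CPM in planulae and was not called (adjusted p = 0.876). The call of gene14037 was lost when planula replicate 2, planula replicate 3, translocated replicate 1 or translocated replicate 3 was left out (adjusted p = 0.0811 to 0.119), and that of gene11665 without translocated replicate 2 (adjusted p = 0.0549). With planula replicate 2 left out, the log2 fold change was 6.94 for gene8642. The log2 fold change without planula replicate 3 was 7.40 for gene25725 and 8.40 for gene8642. Several members have neighbouring identifiers, and how reads shared by near-identical copies were counted is not given in the sources used here, so single values within such groups are uncertain. In the whole list of carbonic anhydrases and calcification ion transport, of 66 tested members, 21 rose and 17 fell (41 and 6 with library totals, 19 and 17 without planula replicate 1), with a median log2 fold change of 0.29.

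**Figure D2:**
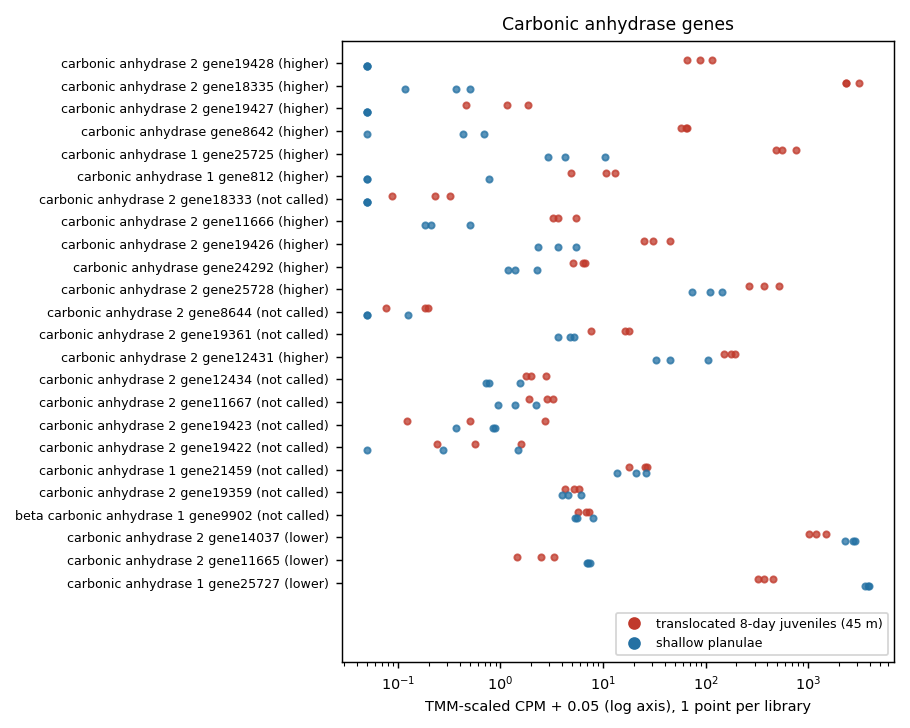
Each of the 24 tested carbonic anhydrase genes in the 3 translocated 8-day juvenile libraries (red) and the 3 shallow planula libraries (blue), as TMM-scaled CPM plus 0.05 on a log axis, ordered by log2 fold change, with the call in parentheses. Near the top gene18335 has 2342 to 3155 CPM in juvenile libraries and at most 0.454 CPM in planula libraries, and at the bottom gene25727 is lower in every juvenile library.

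The organic matrix genes changed in both directions: of 115 tested members, 37 rose and 29 fell (54 and 22 with library totals, 40 and 28 without planula replicate 1), with a median log2 fold change of 0.59 against 0.17 for all genes. The acidic and numbered skeletal matrix proteins leaned upward, as 10 rose and 2 fell of 17 tested; 1 fell when planula replicate 3, translocated replicate 2 or translocated replicate 3 was left out. A skeletal aspartic acid-rich protein 1-like gene (gene5242), whose acidic relatives bind calcium, had 504, 527 and 370.0 CPM in translocated juveniles and 1.06, 0.5996 and 0.319 CPM in planulae (log2 fold change 9.45 ± 0.83, adjusted p = 5.75e-08). A second of that name (gene4925) fell. It had 3.82, 1.70 and 0.225 CPM in translocated juveniles and 23.4, 14.1 and 47.2 CPM in planulae. Its log2 fold change was -3.85 ± 1.44 (adjusted p = 0.0376). The call of gene4925 was lost without planula replicate 3, translocated replicate 2 or translocated replicate 3 (adjusted p = 0.101 to 0.121). A galaxin-like gene (gene13931), named after a cysteine-rich protein of coral skeleton, had 329, 242 and 179.8 CPM in translocated juveniles and 0, 0 and 0.0797 CPM in planulae. That is a single planula count, in replicate 3, and the ratio of scaled counts was 10734, with a 95% counting interval of 1926 to 423972. Leaving out planula replicate 3 left no count in the lower group for gene13931. The name uncharacterized skeletal organic matrix protein 8 belonged to genes that changed in opposite directions: gene16153 had 86.9, 101 and 73.2 CPM in translocated juveniles and no planula count, at least 393-fold higher (adjusted p = 2.71e-06). Another, gene16152, had no count in translocated juveniles and 7.71, 14.2 and 14.1 CPM in planulae, at least 110.1-fold lower in the juveniles (adjusted p = 1.61e-05). Of the remaining genes of that name, gene16157 and gene16160 also rose, to means of 0.913 and 2.10 CPM in translocated juveniles. The calls did not include gene16161 and gene16163. The groups did not overlap in any of these genes.

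The other families of the matrix list did not share a direction. Of 12 tested mucin-like proteins 3 rose and 6 fell (5 and 4 with library totals, 3 and 5 without planula replicate 1). Of the 40 tested genes named uncharacterized skeletal organic matrix protein 5, 7 rose and 11 fell, 17.5% and 27.5% against 22.0% and 19.5% of all genes. Without planula replicate 2 or without planula replicate 3, 4 rose. Among the falls was gene27240, at 0.487, 0.704 and 0.135 CPM in translocated juveniles and 10.1, 9.93 and 18.1 CPM in planulae (log2 fold change -4.79 ± 0.61, adjusted p = 4.27e-06). Among coadhesins, adhesive proteins known from Acropora skeleton, 8 rose and 7 fell of 24 tested (33.3% and 29.2%). Of the falls, gene6098 had 39.7, 88.5 and 91.5 CPM in translocated juveniles and 632, 931 and 697 CPM in planulae (log2 fold change -3.36 ± 0.36, adjusted p = 6.97e-07), and gene603 had 11.02, 7.04 and 10.6 CPM in translocated juveniles and 349, 453 and 429 CPM in planulae (log2 fold change -5.42 ± 0.72, adjusted p = 7.48e-06). Of 6 galaxins 5 could be tested, of which 3 rose and 0 fell. When any library but translocated replicate 2 was left out, 2 rose, as the call of gene17403 was lost (adjusted p = 0.0665 to 0.116). Among the rises gene12581 was spread widely in the juveniles, at 37.2, 266 and 347 CPM, against 8.31, 1.67 and 2.15 CPM in planulae (log2 fold change 5.75 ± 1.22, adjusted p = 0.00087). Among voltage-dependent calcium channels 2 rose and 6 fell of 8 tested (2 and 2 with library totals, 2 and 6 without planula replicate 1); 1 rose without planula replicate 2 or translocated replicate 3. The T-type channel gene14239, which opens at low voltage in excitable cells, had 31.2, 32.6 and 34.3 CPM in translocated juveniles and 432, 454 and 476 CPM in planulae (log2 fold change -3.80 ± 0.33, adjusted p = 5.55e-08). Sodium/calcium exchanger 2 (gene3796) had 23.9 ± 3.46 CPM in translocated juveniles and 242 ± 18.6 CPM in planulae (log2 fold change -3.34 ± 0.30, adjusted p = 7.90e-08). Of bicarbonate and anion exchangers 2 rose and 0 fell of 4 tested. For V-type proton ATPase subunits, 0 rose and 4 fell of 15 tested with a median log2 fold change of -0.31 that became 0.66 with library totals. Leaving out planula replicate 1 gave a log2 fold change of 6.83 for gene12581.

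The machinery of motile cilia, by which the planula swims, fell almost throughout. Of 126 members of the list, all tested, 106 fell and 5 rose, against 19.5% and 22.0% of all genes; without planula replicate 1 the counts were 105 and 5. The median log2 fold change was -2.04, and -1.09 with library totals, where 85 members were called lower and 9 were called higher. The summed level of the list was 4611, 4435 and 4664 CPM in translocated juveniles and 29718, 21218 and 28137 CPM in planulae.

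The falls covered each structural class examined. Dynein regulatory complex subunit 3 (gene20585), part of the link between microtubule doublets, had 29.6, 24.96 and 28.6 CPM in translocated juveniles and 334, 225 and 279 CPM in planulae (log2 fold change -3.33 ± 0.21, adjusted p = 1.62e-09). Axonemal dynein light chain 1 (gene5977), a motor subunit, had 36.2, 36.2 and 34.7 CPM in translocated juveniles and 268, 249.6 and 298 CPM in planulae (log2 fold change -2.93 ± 0.20, adjusted p = 5.29e-09). Intraflagellar transport protein 56 (gene20579), of the trafficking system that builds cilia, had 46.2, 45.3 and 40.8 CPM in translocated juveniles and 216, 228 and 227 CPM in planulae (log2 fold change -2.34 ± 0.16, adjusted p = 5.29e-09). The libraries of the groups lay far apart in each of the 3 genes, with little spread within a group. By class, 30 of 33 cilia- and flagella-associated proteins fell, 17 of 18 intraflagellar transport proteins, 13 of 17 axonemal dynein chains, 9 of 13 radial spoke head proteins and 3 of 3 tektins, the filament proteins of the doublets. The tektin-1-like gene1713 averaged 62.8 ± 6.19 CPM in translocated juveniles and 1331 ± 418 CPM in planulae (SD, n = 3 each). The members that rose included outer dense fiber protein 2 (gene11329), a centriole protein, with 14.3 ± 1.37 CPM in translocated juveniles and 3.01 ± 1.28 CPM in planulae (log2 fold change 2.25 ± 0.35, adjusted p = 3.94e-05), tectonic-3 (gene12746), of the ciliary transition zone, with 31.9 ± 6.93 CPM in translocated juveniles and 15.1 ± 2.89 CPM in planulae, and 1 of the radial spoke head 1 homologs (gene20182), with 54.2 ± 6.79 CPM in translocated juveniles and 12.2 ± 3.34 CPM in planulae. In the germ line list, spermatogenesis-associated protein 17 (gene5340) fell as well, with 23.2 ± 3.33 CPM in translocated juveniles and 132 ± 31.5 CPM in planulae (log2 fold change -2.51 ± 0.19, adjusted p = 1.16e-08).

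**Figure D3:**
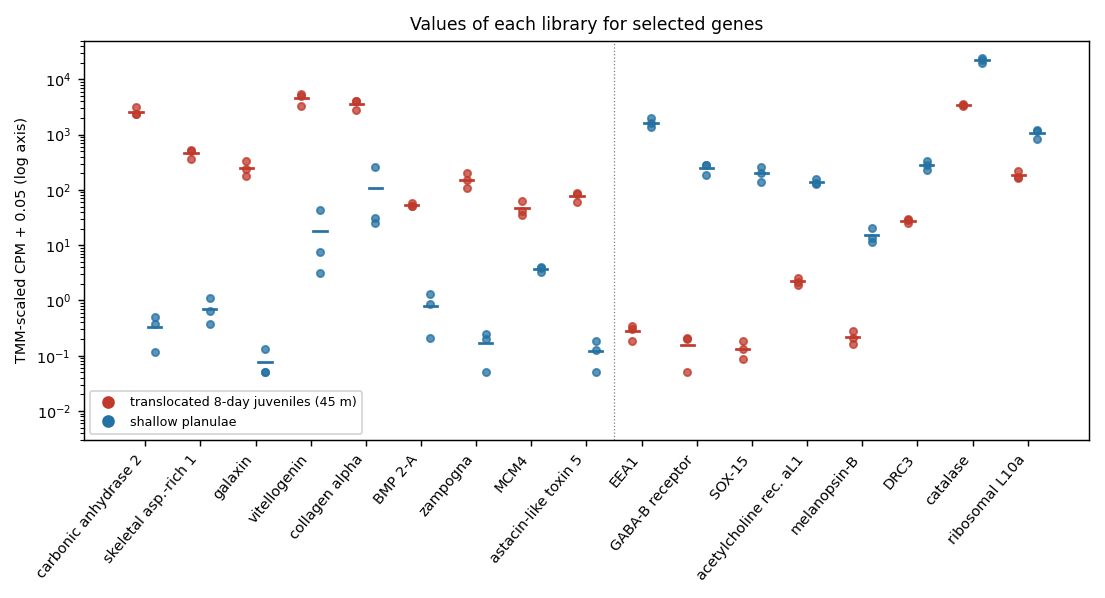
TMM-scaled CPM plus 0.05 (log axis) in each translocated 8-day juvenile library (red, left of each pair) and each shallow planula library (blue, right) for genes that rose (left of the dotted line) and genes that fell, with a bar at the mean of each group. No juvenile library overlaps a planula library in any of these genes, as in 57.1% of all genes tested. For the largest rises and falls this was a condition of selection. The other genes were chosen from these same libraries by small p or large change, which favours it. Planula replicate 1 is the high planula point for vitellogenin and collagen alpha.

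Neural and sensory genes changed in both directions, and several receptors were nearly lost. Of the 595 tested members of the neuronal list 160 rose and 157 fell (26.9% and 26.4%; 255 and 97 with library totals, 149 and 149 without planula replicate 1), with a median log2 fold change of 0.15 against 0.17 for all genes. A gamma-aminobutyric acid type B receptor subunit (gene6990), a G protein-coupled receptor for the transmitter GABA, had 0.162, 0.148 and 0 CPM in translocated juveniles and 186, 277 and 288 CPM in planulae (log2 fold change -11.05 ± 0.91, adjusted p = 1.81e-07). The acetylcholine receptor subunit alpha-L1-like gene20718, of the family of ligand-gated channels, had 2.14, 1.85 and 2.51 CPM in translocated juveniles and 130.5, 159 and 133 CPM in planulae (log2 fold change -6.02 ± 0.33, adjusted p = 5.10e-10). The neuronal acetylcholine receptor subunit alpha-7-like gene17332 had 3.03, 2.15 and 2.42 CPM in translocated juveniles and 68.3, 92.9 and 79.8 CPM in planulae (log2 fold change -4.98 ± 0.29, adjusted p = 1.05e-09). Galanin receptor type 1 (gene5871), a neuropeptide receptor, had 2.08, 1.85 and 1.93 CPM in translocated juveniles and 81.6, 75.4 and 87.1 CPM in planulae (log2 fold change -5.37 ± 0.28, adjusted p = 3.91e-10). A D(4) dopamine receptor-like gene (gene13) had 0, 0.03703 and 0 CPM in translocated juveniles and 11.7, 12.4 and 12.1 CPM in planulae; the ratio of planula to juvenile scaled counts was 1042, with a 95% counting interval of 186 to 41244. Leaving out translocated replicate 2 left no count in the lower group for gene13. Every planula library exceeded every juvenile library in these 5 genes.

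Other receptors rose and were scarce in planulae. An octopamine receptor (gene271), for an invertebrate amine transmitter, had 18.03, 15.3 and 16.8 CPM in translocated juveniles and 1.44, 0.866 and 0.637 CPM in planulae (log2 fold change 4.09 ± 0.45, adjusted p = 8.61e-07). The alpha-10-like acetylcholine receptor subunit gene14787 had 27.3, 22.00 and 34.9 CPM in translocated juveniles and 6.35, 2.798 and 3.66 CPM in planulae (log2 fold change 2.72 ± 0.29, adjusted p = 6.83e-07). A GABA receptor beta subunit (gene21461) had 8.31, 6.89 and 5.12 CPM in translocated juveniles and 0.6803, 0.733 and 0.956 CPM in planulae (log2 fold change 3.10 ± 0.30, adjusted p = 1.93e-07). By family, 49 neuropeptide and galanin receptors rose and 27 fell of 139 tested, 12 acetylcholine receptor subunits rose and 20 fell of 46, and 8 voltage-gated potassium channels rose and 16 fell of 46. The rises among acetylcholine receptor subunits numbered 5 without planula replicate 2 and 6 without translocated replicate 2. Among the potassium channels 3 to 5 rose when any planula library, translocated replicate 1 or translocated replicate 2 was left out. The median of the acetylcholine receptor subunits, -0.45, and that of the potassium channels, -0.76, turned positive with library totals (0.52 and 0.21). A growth hormone secretagogue receptor type 1-like gene (gene9608), of the ghrelin receptor family, had 23.1, 31.2 and 35.3 CPM in translocated juveniles and no planula count, at least 135-fold higher (adjusted p = 3.66e-08). In each of these rises no planula library reached a juvenile library.

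Light-sensing and clock genes fell more often than they rose: of 48 tested members, 6 rose and 23 fell (13 and 13 with library totals, 5 and 21 without planula replicate 1), with a median log2 fold change of -1.20, and -0.25 with library totals. Opsins accounted for 15 falls and 4 rises among 36 tested genes; their median of -0.95 was 0.01 with library totals, where 9 were lower and 9 higher; without planula replicate 1, 13 fell and 3 rose. A melanopsin-like gene (gene20243), of a family of invertebrate-type light receptors, had 2.98, 2.26 and 2.87 CPM in translocated juveniles and 46.3, 79.7 and 92.98 CPM in planulae (log2 fold change -4.75 ± 0.57, adjusted p = 2.37e-06). The melanopsin-B-like gene28817 had 0.162, 0.111 and 0.225 CPM in translocated juveniles and 11.4, 13.7 and 20.1 CPM in planulae (log2 fold change -6.47 ± 0.59, adjusted p = 2.02e-07). Another, the melanopsin-like gene2501, fell less, with 22.9, 17.3 and 16.9 CPM in translocated juveniles and 56.1, 64.9 and 57.2 CPM in planulae (log2 fold change -1.64 ± 0.34, adjusted p = 0.000705). Opsins that rose stayed below 3 CPM in every juvenile library, such as the rhodopsin-like gene9955, with 2.27, 1.96 and 1.84 CPM in translocated juveniles and 0.151, 0 and 0.0797 CPM in planulae, a ratio of scaled counts of 28.1, with a 95% counting interval of 9.45 to 137. The fit without planula replicate 1 gave 5.59 for gene9955 on the log2 scale. With planula replicate 2 left out, the log2 fold change was 4.06 for gene9955. The groups did not overlap in these opsins.

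Of the 12 clock and cryptochrome genes 8 fell and 2 rose, or 4 and 4 with library totals. The gene named for bHLHE40 (gene8345), a transcription repressor under clock control in mammals, had 31.2, 28.4 and 36.4 CPM in translocated juveniles and 234, 237 and 226 CPM in planulae (log2 fold change -2.86 ± 0.17, adjusted p = 1.47e-09). Thyrotroph embryonic factor (gene10071), a rhythmic leucine zipper factor in vertebrates, had 66.03, 79.9 and 83.2 CPM in translocated juveniles and 451, 598 and 464 CPM in planulae (log2 fold change -2.72 ± 0.28, adjusted p = 3.54e-07). The cryptochrome-1-like gene17590, named after a light-responsive clock protein, had 247, 229.7 and 228 CPM in translocated juveniles and 644, 702 and 725 CPM in planulae (log2 fold change -1.55 ± 0.18, adjusted p = 1.83e-06). A gene named for the clock activator CLOCK (gene4863) had 4.03, 4.33 and 5.43 CPM in translocated juveniles and 29.3, 30.3 and 22.8 CPM in planulae (log2 fold change -2.58 ± 0.30, adjusted p = 1.62e-06). Another of that name, gene786, had 56.4 ± 1.46 CPM in translocated juveniles and 70.00 ± 7.68 CPM in planulae and was not called (adjusted p = 0.208). The rises were timeless (gene9837), with 20.7, 25.2 and 20.2 CPM in translocated juveniles and 5.896, 5.93 and 4.701 CPM in planulae (log2 fold change 1.998 ± 0.41, adjusted p = 0.000578), and the TIMELESS-interacting protein (gene14777), with 11.1, 5.07 and 4.401 CPM in translocated juveniles and 1.28, 0.0666 and 0.956 CPM in planulae (log2 fold change 3.17 ± 0.64, adjusted p = 0.000524). Both proteins are known also for work at the replication fork, and without planula replicate 1 the log2 fold change of gene14777 was 3.78. The groups overlapped in none of the called genes given here. The hour of sampling is not given in the sources used here, and its part in these values was not tested.

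**Figure D4:**
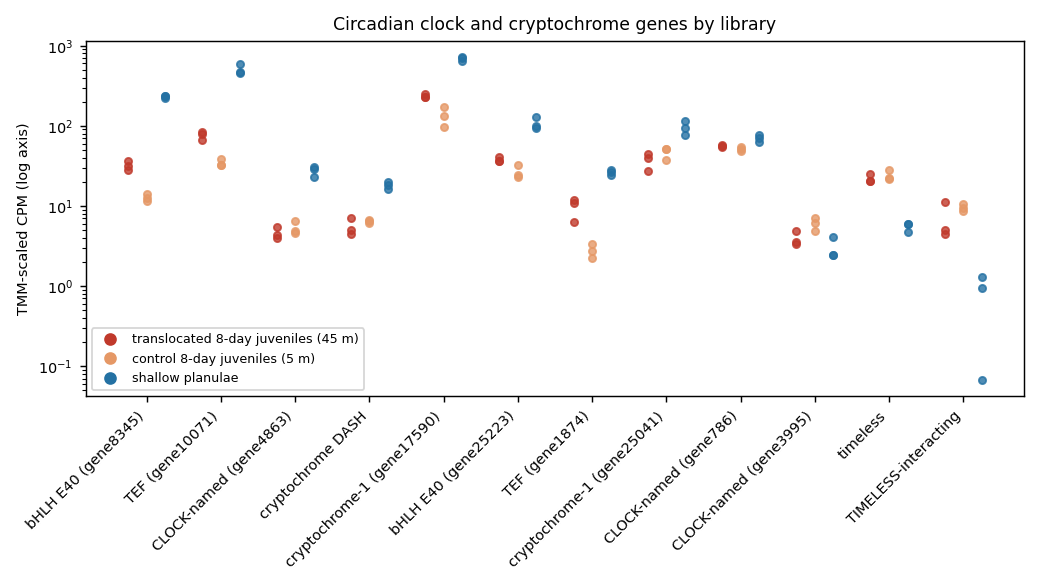
The 12 clock and cryptochrome genes as TMM-scaled CPM (log axis) in each library of translocated 8-day juveniles (red), control 8-day juveniles grown at 5 m (orange) and shallow planulae (blue). The genes from gene8345 to gene25041 fell in translocated juveniles relative to planulae; for gene8345, gene10071 and gene1874 the control juveniles lie lower still, and timeless and the TIMELESS-interacting protein lie lowest in planulae.

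A vitellogenin gene, a major yolk protein-like gene and many collagens rose, and some of these were abundant in the juveniles. Vitellogenin (gene3329), the precursor of yolk lipoprotein and a carrier of lipid in animals, had 3244, 5090.3 and 5490.3 CPM in translocated juveniles and 43.01, 3.13 and 7.49 CPM in planulae (log2 fold change 8.01 ± 0.92, adjusted p = 1.43e-06). A major yolk protein-like gene (gene8661) had 1859.8, 3513 and 3803 CPM in translocated juveniles and 759.6, 43.6 and 125 CPM in planulae (log2 fold change 3.31 ± 0.68, adjusted p = 0.000664). The trichohyalin-like gene13463, named after a structural protein of hair follicles, had 4769, 4779 and 5150.4 CPM in translocated juveniles and 2066, 213 and 179.9 CPM in planulae (log2 fold change 2.58 ± 0.64, adjusted p = 0.0029). Fatty acid synthase (gene19910) had 40.6 ± 9.102 CPM in translocated juveniles and 5.99 ± 1.82 CPM in planulae (log2 fold change 2.76 ± 0.41, adjusted p = 2.27e-05). Apolipoprotein D (gene8824), a small lipid carrier, fell to 38.4, 38.6 and 27.4 CPM in translocated juveniles, against 499, 700.1 and 729 CPM in planulae (log2 fold change -4.21 ± 0.38, adjusted p = 7.13e-08). In the whole list of yolk and lipid storage genes, of 21 tested members, 6 rose and 4 fell (14 and 1 with library totals, 6 and 3 without planula replicate 1). That is 28.6% and 19.0%, near the 22.0% and 19.5% of all genes, with a median log2 fold change of 0.30 against 0.17. Without translocated replicate 2 or translocated replicate 3, 2 fell. The log2 fold change without planula replicate 1 was 4.64 for gene13463, 9.77 for vitellogenin and 5.19 for gene8661. In these 3 genes planula replicate 1 was by far the highest planula, yet stayed below every juvenile library.

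Of 411 tested genes of the extracellular matrix and cell adhesion, 184 rose and 38 fell, with a median log2 fold change of 1.48; the rises and falls were 257 and 18 with library totals, 189 and 37 without planula replicate 1. Collagens, the fibres of the mesoglea, contributed 54 rises and 4 falls among 101 tested genes. The collagen alpha chain gene3077 had 2743, 4099 and 4040.1 CPM in translocated juveniles and 263, 30.5 and 24.7 CPM in planulae (log2 fold change 5.10 ± 0.72, adjusted p = 1.50e-05). The collagen alpha-1(I)-like gene2123 had 2559, 3949 and 3748 CPM in translocated juveniles and 322, 112 and 120.5 CPM in planulae (log2 fold change 4.21 ± 0.43, adjusted p = 3.77e-07). Hemicentins, large adhesive matrix proteins, rose in 29 and fell in 1 of 73 tested genes (no fall was called without replicate 2 or without replicate 3 of either group), and ADAMTS metalloproteinases, which cut matrix proteins, rose in 19 and fell in 7 of 30. Collagenase 3 (gene6426), a matrix metalloproteinase, had 80.2, 85.8 and 53.8 CPM in translocated juveniles and no planula count, at least 330.4-fold higher (adjusted p = 5.60e-07). Laminins, of the basement membrane, showed no common direction, as 3 rose and 4 fell of 9 tested. Larval members that fell included an ADAMTS-named gene (gene23432), with 0.244, 0.555 and 0.494 CPM in translocated juveniles and 44.4, 41.2 and 37.1 CPM in planulae (log2 fold change -6.58 ± 0.74, adjusted p = 1.07e-06), and cartilage matrix protein (gene18143), with 0.0271, 0.03703 and 0 CPM in translocated juveniles and 43.1, 53.6 and 61.5 CPM in planulae; the ratio of planula to juvenile scaled counts was 2269, with a 95% counting interval of 627 to 18749.6. Leaving out planula replicate 1 gave a log2 fold change of 4.88 for gene2123 and 7.04 for gene3077.

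Digestive and venom genes rose more often than they fell. Of 77 tested digestive and gland enzymes 43 rose and 5 fell, with a median log2 fold change of 2.83; the rises and falls were 55 and 3 with library totals, 45 and 5 without planula replicate 1. Astacin-family metalloproteinases contributed 15 rises and 0 falls among 29, and trypsins, chymotrypsins and elastases 17 rises and 2 falls among 26. Zinc metalloproteinase nas-14 (gene24059) had 29.4, 38.6 and 29.5 CPM in translocated juveniles and 0.378, 0.466 and 0.876 CPM in planulae (log2 fold change 5.82 ± 0.43, adjusted p = 8.95e-09). Carboxypeptidase A2 (gene16388), a pancreatic-type peptidase, had 27.1, 33.6 and 28.96 CPM in translocated juveniles and 5.29, 3.06 and 1.75 CPM in planulae (log2 fold change 3.15 ± 0.30, adjusted p = 1.67e-07). Of 6 tested carboxypeptidases 5 rose and 1 fell. The fall was carboxypeptidase B (gene16123), with 1.46, 1.48 and 1.62 CPM in translocated juveniles and 15.4, 22.7 and 17.4 CPM in planulae (log2 fold change -3.60 ± 0.46, adjusted p = 4.66e-06). Of 7 tested chitinase-like genes 4 rose and 1 fell. Among the rises gene817 averaged 15.5 ± 1.503 CPM in translocated juveniles and 0.734 ± 0.112 CPM in planulae, and the fall, gene2070, averaged 2.995 ± 0.685 CPM in translocated juveniles and 27.6 ± 6.297 CPM in planulae (SD, n = 3 each). No juvenile library overlapped a planula library in the enzymes named. The summed level of the list was 1636 to 2095 CPM in translocated juveniles and 995 to 1274 CPM in planulae.

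Among venom and toxin genes, of 26 tested members, 10 rose and 1 fell (16 and 0 with library totals, 10 and 1 without planula replicate 1). By the same test, 5 rose and 0 fell without planula replicate 2, and 6 rose and 0 fell without planula replicate 3. The single fall was also not called without translocated replicate 1 or translocated replicate 2. The astacin-like metalloprotease toxin 5 (gene24061) had 84.3, 89.3 and 60.8 CPM in translocated juveniles and 0.0756, 0.133 and 0 CPM in planulae, and the ratio of scaled counts was 1085, with a 95% counting interval of 371 to 5262. A pore-forming toxin of the alicitoxin type (gene2848), known from sea anemones, had 49.2, 32.03 and 74.3 CPM in translocated juveniles and 0.983, 0.333 and 1.12 CPM in planulae (log2 fold change 6.01 ± 0.80, adjusted p = 8.00e-06). The phospholipase A2-named gene3442 averaged 4.68 ± 1.69 CPM in translocated juveniles and 0.246 ± 0.318 CPM in planulae (log2 fold change 4.23 ± 0.84, adjusted p = 0.000456). Nematocyst structure was represented by 1 named gene, nematocyst expressed protein 6 (gene10427), at 2.17, 1.703 and 2.605 CPM in translocated juveniles and 0.378, 0 and 0.159 CPM in planulae (log2 fold change 3.58 ± 1.10, adjusted p = 0.0129); no minicollagen was named in the annotation used. The fit without planula replicate 1 gave 5.95 for gene3442 on the log2 scale. With planula replicate 2 left out, the log2 fold change was 10.80 for gene24061. For gene10427 it was 4.76 without planula replicate 1, and its call was lost without planula replicate 2 (adjusted p = 0.0545). The toxins and gene10427 were lower in every planula library than in any juvenile library.

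Transporters linked to nutrient exchange with the algal symbionts rose more often than they fell: of 42 tested members, 16 rose and 6 fell (26 and 1 with library totals, 18 and 6 without planula replicate 1), with a median log2 fold change of 0.68. The Rh type B ammonium transporter (gene15055), a channel for ammonia, had 154, 166 and 159.5 CPM in translocated juveniles and 28.7, 5.06 and 7.89 CPM in planulae (log2 fold change 3.52 ± 0.46, adjusted p = 6.57e-06). The Rh type A gene (gene15054) had 29.2, 34.7 and 34.8 CPM in translocated juveniles and 6.35, 1.93 and 1.91 CPM in planulae (log2 fold change 3.28 ± 0.40, adjusted p = 2.78e-06). Another ammonium transporter fell: putative ammonium transporter 1 (gene13718) had 169.7, 134 and 92.1 CPM in translocated juveniles and 707, 801 and 706 CPM in planulae (log2 fold change -2.48 ± 0.27, adjusted p = 6.83e-07). Sodium-dependent phosphate transport protein 2B (gene14220) averaged 606 ± 96.04 CPM in translocated juveniles and 189 ± 22.8 CPM in planulae (log2 fold change 1.68 ± 0.29, adjusted p = 0.00011). The log2 fold change without planula replicate 1 was 4.09 for gene15054 and 4.63 for gene15055. Green fluorescent protein-like pigments were 6 genes, none of which was called in either direction; the most abundant in planulae, gene24394, had 28.05, 38.7 and 28.9 CPM in translocated juveniles and 51.5, 34.2 and 58.3 CPM in planulae (adjusted p = 0.57). Muscle genes changed in both directions, and of 93 tested members, 27 rose and 21 fell (51 and 12 with library totals, 22 and 21 without planula replicate 1), which is 29.0% and 22.6% against 22.0% and 19.5% of all genes. Tropomyosin alpha-4 (gene16973), an actin filament protein, had 162, 118 and 122 CPM in translocated juveniles and 13.4, 1.13 and 1.51 CPM in planulae (log2 fold change 4.65 ± 0.66, adjusted p = 1.45e-05). An actin gene (gene28547) had 1.03, 1.07 and 1.71 CPM in translocated juveniles and 77.5, 81.5 and 95.8 CPM in planulae (log2 fold change -6.07 ± 0.63, adjusted p = 4.34e-07). Leaving out planula replicate 1 gave a log2 fold change of 6.67 for gene16973.

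Patterning genes rose more often than they fell. Of 240 tested signalling genes 89 rose and 24 fell (146 and 12 with library totals, 89 and 25 without planula replicate 1), and of 198 tested transcription factors 102 rose and 37 fell (131 and 18 with library totals, 107 and 36 without planula replicate 1). Among ligands of the bone morphogenetic protein and nodal families, which pattern body axes, 7 rose and 0 fell of 11 tested. A bone morphogenetic protein 2-A-like gene (gene7035) had 301, 408 and 263 CPM in translocated juveniles and 11.4, 4.73 and 5.26 CPM in planulae (log2 fold change 5.50 ± 0.87, adjusted p = 4.89e-05). A second of that name (gene5203) had 51.4, 50.3 and 57.5 CPM in translocated juveniles and 1.28, 0.799 and 0.159 CPM in planulae (log2 fold change 6.13 ± 0.53, adjusted p = 4.50e-08). Growth/differentiation factor 6-A (gene9527) had 35.9, 25.6 and 17.4 CPM in translocated juveniles and 1.74, 0.866 and 0.558 CPM in planulae (log2 fold change 4.63 ± 0.41, adjusted p = 6.20e-08). Kielin/chordin-like gene11681, named after secreted modulators of these ligands, had 7.26, 10.4 and 6.11 CPM in translocated juveniles and 149.7, 224 and 222 CPM in planulae (log2 fold change -4.64 ± 0.34, adjusted p = 7.24e-09). The receptor activin receptor type-2A (gene3073) averaged 75.3 ± 10.9 CPM in translocated juveniles and 17.2 ± 0.597 CPM in planulae (log2 fold change 2.13 ± 0.18, adjusted p = 4.24e-08). The fit without planula replicate 1 gave 6.73 for gene5203 on the log2 scale. For each of these genes the groups did not overlap.

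Wnt ligands, which mark positions along the main body axis of cnidarians, changed in both directions: 9 rose and 5 fell of 20 tested genes matched by name, 1 of them the Wnt secretion factor wntless. The 3 genes named Wnt-2b-A went different ways: gene896 had 5.36, 3.96 and 6.69 CPM in translocated juveniles and 126, 35.4 and 46.2 CPM in planulae (log2 fold change -3.70 ± 0.83, adjusted p = 0.0013), gene897 had 21.7, 19.3 and 16.8 CPM in translocated juveniles and 1.44, 1.799 and 1.51 CPM in planulae (log2 fold change 3.60 ± 0.37, adjusted p = 3.41e-07), and gene898 averaged 4.93 ± 2.52 CPM in translocated juveniles and 0.102 ± 0.123 CPM in planulae (log2 fold change 5.57 ± 0.92, adjusted p = 7.38e-05). Wnt-4 (gene18878) had 24.8, 10.9 and 14.5 CPM in translocated juveniles and 112, 125 and 126 CPM in planulae (log2 fold change -2.85 ± 0.56, adjusted p = 0.000393). The Wnt-5a-like gene4411 had 45.5, 34.4 and 25.8 CPM in translocated juveniles and 3.85, 0.5996 and 0.398 CPM in planulae (log2 fold change 4.45 ± 0.55, adjusted p = 3.52e-06). Homeobox genes included 58 rises and 14 falls among 106, and forkhead genes 16 rises and 7 falls among 31. The homeobox gene zampogna (gene19519), named after a bagpipe-family factor of the frog, had 108, 199.9 and 149 CPM in translocated juveniles and 0.151, 0.1999 and 0 CPM in planulae (log2 fold change 10.23 ± 0.86, adjusted p = 3.49e-08). OTX1 A (gene12132), named after factors of the anterior nervous system, had 19.2, 13.7 and 24.03 CPM in translocated juveniles and 0.0756, 0 and 0.0797 CPM in planulae, and the ratio of scaled counts was 382, with a 95% counting interval of 105 to 3153. With planula replicate 1 left out, the log2 fold change was 6.11 for gene4411 and -2.93 for gene896. The log2 fold change without planula replicate 2 was 7.84 for OTX1 A and 10.84 for zampogna. Leaving out planula replicate 3 gave a log2 fold change of 6.93 for gene898.

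SOX factors, which hold cells in progenitor and neural states in many animals, were divided: 6 rose and 7 fell of 15 tested (7 and 4 with library totals, 7 and 7 without planula replicate 1). SOX-15 (gene25376) had 0.0812, 0.03703 and 0.135 CPM in translocated juveniles and 139, 261 and 199 CPM in planulae (log2 fold change -11.16 ± 1.52, adjusted p = 9.51e-06). Sox-17 (gene16176) had 0.541, 0.407 and 0.449 CPM in translocated juveniles and 34.01, 72.1 and 60.2 CPM in planulae (log2 fold change -6.87 ± 0.61, adjusted p = 6.00e-08). Sox-3 (gene11833) had 133, 100.3 and 90.8 CPM in translocated juveniles and 659.6, 809.6 and 697 CPM in planulae (log2 fold change -2.74 ± 0.20, adjusted p = 6.86e-09). Sox-21-B (gene21100) rose, with 66.9, 72.5 and 89.8 CPM in translocated juveniles and 11.6, 0.799 and 1.75 CPM in planulae (log2 fold change 4.02 ± 0.69, adjusted p = 0.000106). Of 8 T-box genes 5 rose and 1 fell; 2 rose without planula replicate 2 or without planula replicate 3, and 3 without translocated replicate 3. The fall was TBX3 (gene2468), with 0.271, 0.296 and 0.135 CPM in translocated juveniles and 20.7, 32.8 and 24.7 CPM in planulae (log2 fold change -6.75 ± 0.92, adjusted p = 9.37e-06). The groups did not overlap in any of the SOX and T-box genes named. The median of the SOX genes, -0.79, was 0.17 with library totals. The fit without planula replicate 1 gave 5.92 for Sox-21-B on the log2 scale.

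Genes of DNA replication and mitosis rose more often than they fell: of 134 tested members 68 rose and 17 fell (100 and 6 with library totals, 68 and 17 without planula replicate 1). Of the 10 MCM licensing genes, subunits of the replicative helicase, 7 rose and none fell, and the 3 not called were below 4 CPM in every library of both groups. MCM4 (gene18252) had 63.6, 41.6 and 34.7 CPM in translocated juveniles and 3.85, 3.26 and 3.98 CPM in planulae (log2 fold change 3.66 ± 0.34, adjusted p = 1.30e-07). MCM7 (gene1278) had 57.1, 40.6 and 32.4 CPM in translocated juveniles and 5.59, 3.198 and 2.95 CPM in planulae (log2 fold change 3.47 ± 0.36, adjusted p = 3.73e-07). Cdt1 (gene20454), which loads the helicase, had 18.7, 14.96 and 11.2 CPM in translocated juveniles and 3.099, 1.999 and 1.91 CPM in planulae (log2 fold change 2.68 ± 0.27, adjusted p = 2.81e-07). In all 3 genes each juvenile library lay above each planula library. Centromere and kinetochore proteins rose in 18 and fell in 2 of 30 tested genes. The cell cycle inhibitor CDKN1B (gene17591) had 51.6, 66.1 and 69.7 CPM in translocated juveniles and 419, 409 and 378 CPM in planulae (log2 fold change -2.69 ± 0.28, adjusted p = 4.14e-07). DNA methyltransferase 1 (gene312), which copies methylation after replication, averaged 26.8 ± 2.902 CPM in translocated juveniles and 3.42 ± 1.03 CPM in planulae (log2 fold change 2.97 ± 0.27, adjusted p = 1.04e-07). Of the histone genes 5 rose and 11 fell of 40 tested (12.5% and 27.5%), with a median of -0.43 that was 0.55 with library totals. Among the falls was histone H4 (gene5079), with 48.3, 38.9 and 33.3 CPM in translocated juveniles and 182, 228 and 245 CPM in planulae (log2 fold change -2.44 ± 0.24, adjusted p = 2.29e-07). Poly(A) selection limits what these libraries show of histone transcripts that carry no poly(A) tail. In the germ line list, of 46 tested members, 8 rose and 11 fell (23 and 7 with library totals, 8 and 11 without planula replicate 1). Those shares, 17.4% and 23.9%, lay near the 22.0% and 19.5% of all genes. The gene nanos homolog 1 (gene6237), of germ and stem cells, averaged 94.9 ± 33.02 CPM in translocated juveniles and 41.8 ± 9.14 CPM in planulae (log2 fold change 1.18 ± 0.30, adjusted p = 0.00329).

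Genes of protein synthesis and energy metabolism fell relative to the rest. Of 74 cytosolic ribosomal protein genes 73 fell and none rose, with a median log2 fold change of -2.20 (-1.23 with library totals, where 70 were lower); without planula replicate 1 the falls were 73. Their summed share of all counts was 4.36% to 5.77% in translocated juveniles and 10.9% to 13.8% in planulae. Ribosomal protein L10a (gene23030) had 223, 171 and 164 CPM in translocated juveniles and 827, 1237 and 1144 CPM in planulae (log2 fold change -2.52 ± 0.23, adjusted p = 7.15e-08). Elongation factor 1-alpha (gene10792), which brings aminoacyl-tRNA to the ribosome, had 4213, 3719 and 3896 CPM in translocated juveniles and 11865, 15177 and 14697 CPM in planulae (log2 fold change -1.82 ± 0.24, adjusted p = 5.57e-06). Both genes were lower in every juvenile library than in any planula library. In oxidative phosphorylation 46 of 51 genes fell and 1 rose: all 20 named complex I genes, 4 of 4 of complex III, 9 of 12 of complex IV and 9 of 11 of ATP synthase. The median of -1.40 was -0.43 with library totals, and 19 of these genes were then called lower; without planula replicate 1, 45 fell. Succinate dehydrogenase flavoprotein (gene22267), of complex II, had 455, 519 and 403 CPM in translocated juveniles and 1091, 1335 and 1245.7 CPM in planulae (log2 fold change -1.42 ± 0.19, adjusted p = 7.46e-06).

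In the proteasome, 31 of 34 tested genes fell and none rose, with a median of -1.14, but -0.18 with library totals, where 4 were called lower and 2 higher; without planula replicate 1, 29 fell. Glycolysis and citrate cycle genes fell in 20 and rose in 2 of 30 cases (9 and 7 with library totals, 20 and 1 without planula replicate 1), with a median of -0.86 that turned to 0.12 with library totals; 1 rose when any library but translocated replicate 1 was left out. Glucose-6-phosphate isomerase (gene15638), an early enzyme of glycolysis, had 152, 150.5 and 119.6 CPM in translocated juveniles and 522, 568 and 600.4 CPM in planulae (log2 fold change -2.003 ± 0.22, adjusted p = 9.05e-07). Cytosolic isocitrate dehydrogenase (gene639), a source of NADPH, rose, with 364, 484 and 393 CPM in translocated juveniles and 83.8, 105 and 95.4 CPM in planulae (log2 fold change 2.13 ± 0.23, adjusted p = 6.35e-07). Fatty acid oxidation genes fell in 22 and rose in 10 of 52 cases (9 and 22 with library totals, 23 and 9 without planula replicate 1), and their median of -0.46 became 0.50 with library totals. Acyl-CoA dehydrogenase family member 11 (gene17695) had 18.1, 21.4 and 18.8 CPM in translocated juveniles and 276, 325 and 255 CPM in planulae (log2 fold change -3.88 ± 0.40, adjusted p = 4.40e-07). Carnitine O-palmitoyltransferase 1 (gene8050), the entry step of fatty acids into mitochondria, averaged 139 ± 22.5 CPM in translocated juveniles and 58.3 ± 2.67 CPM in planulae (log2 fold change 1.25 ± 0.16, adjusted p = 5.18e-06).

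**Figure D5:**
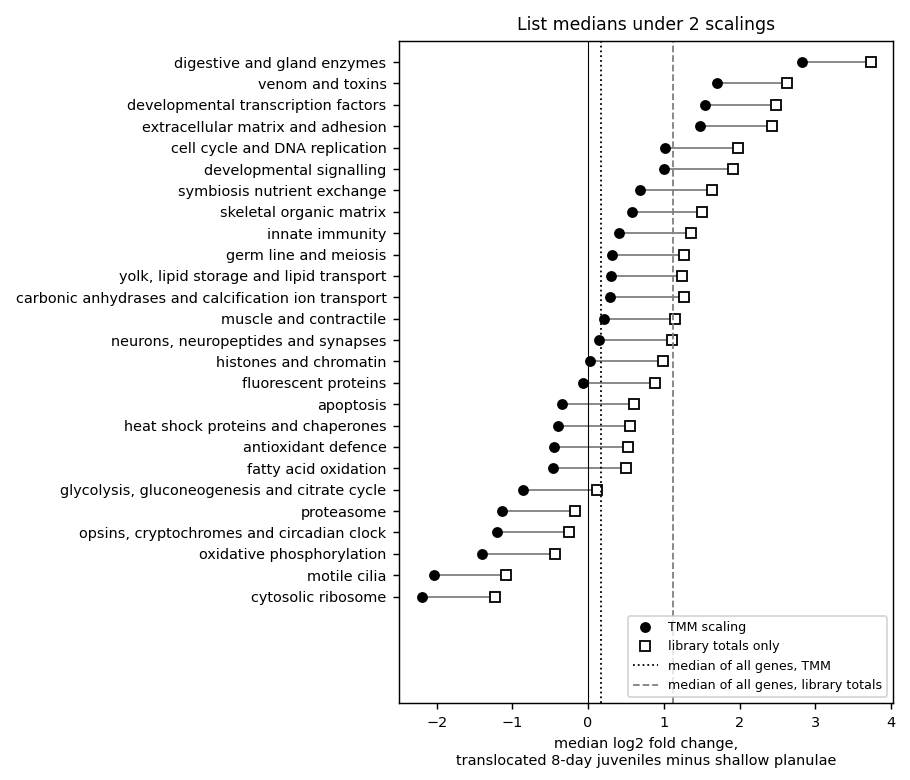
Median log2 fold change of each list, translocated 8-day juveniles minus shallow planulae, with TMM scaling (filled circles) and with library totals only (open squares); vertical lines mark the median of all genes under TMM (0.17, dotted) and under library totals (1.13, dashed). Every list shifts right by about the same amount, and the medians of fluorescent proteins, apoptosis, heat shock, antioxidant, fatty acid oxidation and glycolysis genes change sign.

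Stress and defence genes showed no single direction that both scalings shared. Of antioxidant genes 22 fell and 7 rose among 54 (8 and 19 with library totals, 22 and 5 without planula replicate 1), with a median of -0.45 that was 0.53 with library totals. Without translocated replicate 1 the rises numbered 4. Catalase (gene3500), which breaks down hydrogen peroxide, had 3499.6, 3328 and 3622 CPM in translocated juveniles and 19481, 24319.6 and 22415 CPM in planulae (log2 fold change -2.66 ± 0.35, adjusted p = 5.56e-06). Soma ferritin (gene11073), an iron store, had 4156, 3691 and 3736 CPM in translocated juveniles and 17409, 22936 and 23531 CPM in planulae (log2 fold change -2.46 ± 0.35, adjusted p = 1.55e-05). Glutathione peroxidase 1 (gene24142) had 14.5, 12.6 and 10.6 CPM in translocated juveniles and 1.66, 1.13 and 1.04 CPM in planulae (log2 fold change 3.29 ± 0.56, adjusted p = 0.000113). The catalytic subunit of glutamate-cysteine ligase (gene11569), the first enzyme of glutathione synthesis, had 15.6, 35.6 and 32.3 CPM in translocated juveniles and no planula count, at least 125-fold higher (adjusted p = 1.97e-07). Catalase and ferritin were lower in every juvenile library, and the other 2 genes higher. Of heat shock proteins and chaperones 31 fell and 6 rose among 92 (2 and 34 with library totals, 29 and 10 without planula replicate 1), and the median of -0.40 was 0.55 with library totals. DnaJ homolog subfamily B member 13 (gene22551), a cilium-associated co-chaperone, had 48.1, 36.2 and 35.6 CPM in translocated juveniles and 518, 326 and 411 CPM in planulae (log2 fold change -3.39 ± 0.38, adjusted p = 9.94e-07). Heat shock 70 kDa protein 12A (gene1630) had 15.1, 36.5 and 46.5 CPM in translocated juveniles and 6.42, 0.5996 and 0.239 CPM in planulae (log2 fold change 3.76 ± 0.91, adjusted p = 0.00254). With planula replicate 1 left out, the log2 fold change was 6.24 for gene1630.

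Innate immunity genes rose in 85 and fell in 35 of 376 cases (158 and 9 with library totals, 83 and 32 without planula replicate 1), 22.6% and 9.31% against 22.0% and 19.5% of all genes. A gene named deleted in malignant brain tumors 1 (gene17807), a secreted scavenger receptor of mucosal surfaces, had 31.2, 49.4 and 33.6 CPM in translocated juveniles and 0.756, 0.799 and 0.319 CPM in planulae (log2 fold change 5.90 ± 0.48, adjusted p = 2.63e-08), but gene21444 of the same name had 25.3, 36.96 and 27.1 CPM in translocated juveniles and 404, 432 and 325 CPM in planulae (log2 fold change -3.70 ± 0.53, adjusted p = 1.82e-05). Toll-like receptor 6 (gene2724) had 32.8, 56.7 and 71.4 CPM in translocated juveniles and 5.59, 1.399 and 2.15 CPM in planulae (log2 fold change 4.14 ± 0.48, adjusted p = 1.53e-06). A NACHT and WD repeat protein (gene950), of the intracellular sensor family, had 65.3, 65.99 and 80.4 CPM in translocated juveniles and 1009, 620.5 and 821 CPM in planulae (log2 fold change -3.53 ± 0.29, adjusted p = 2.73e-08). The libraries of the groups did not overlap in these 4 genes. Of the cGAS and STING genes, sensors of cytosolic DNA and their partner, 0 rose and 6 fell (23.1%) of 26 tested, with a median of -0.46 that was 0.48 with library totals. The share of falls lay near the 19.5% of all genes, and that of rises below the 22.0%. For apoptosis, of 40 tested members, 3 rose and 15 fell (21 and 6 with library totals, 3 and 15 without planula replicate 1), and the median of -0.35 was 0.61 with library totals. Apoptosis regulator R1 (gene3813), a BCL-2 family member, averaged 5.51 ± 0.816 CPM in translocated juveniles and 66.9 ± 15.02 CPM in planulae (log2 fold change -3.60 ± 0.44, adjusted p = 2.95e-06). Caspase recruitment domain protein 11 (gene4821) averaged 50.2 ± 13.7 CPM in translocated juveniles and 14.6 ± 5.79 CPM in planulae (log2 fold change 1.78 ± 0.27, adjusted p = 2.92e-05). The log2 fold change without planula replicate 1 was 4.92 for gene2724.

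Several of the largest changes concerned genes outside the lists. Early endosome antigen 1 (gene11094), named after a tether of endocytic vesicles, was nearly lost, with 0.298, 0.259 and 0.135 CPM in translocated juveniles and 1350.2, 1620.5 and 1994 CPM in planulae (log2 fold change -12.73 ± 1.77, adjusted p = 2.00e-05). A furin-like convertase (gene26190), which cuts secreted precursors, had no count in translocated juveniles and 20.2, 6.93 and 21.4 CPM in planulae, at least 148-fold lower in juveniles (adjusted p = 3.30e-06). Steroid 17-alpha-hydroxylase/17,20 lyase (gene14117), a cytochrome P450 name, had 0.298, 0.333 and 0.225 CPM in translocated juveniles and 206, 201 and 211 CPM in planulae (log2 fold change -9.46 ± 0.96, adjusted p = 1.57e-06). Thyroxine 5-deiodinase (gene3241), which in vertebrates inactivates thyroid hormone, had 0.0541, 0.296 and 0.225 CPM in translocated juveniles and 95.99, 109 and 121 CPM in planulae (log2 fold change -9.19 ± 1.26, adjusted p = 1.67e-05). The immediate early transcription factor c-Fos (gene5217) had the largest loss in CPM among named genes, with 11962, 12015 and 12233 CPM in translocated juveniles and 49968, 64469 and 65220.0 CPM in planulae (log2 fold change -2.31 ± 0.26, adjusted p = 1.06e-06). Gains included cornifin alpha (gene4987), named after a protein of cornified envelopes, with 609.9, 1083 and 1205 CPM in translocated juveniles and 0.0756, 0.333 and 0.0797 CPM in planulae (log2 fold change 12.43 ± 2.75, adjusted p = 0.00118). The mucin-like gene19429, counted in the skeletal matrix list, had 41.4, 48.1 and 42.6 CPM in translocated juveniles and no planula count, at least 199-fold higher (adjusted p = 4.51e-07). A lymphocyte antigen 6 complex protein G6d gene (gene16070) had 499, 546 and 432 CPM in translocated juveniles and 0.151, 0.0666 and 0 CPM in planulae, and the ratio of scaled counts was 6749, with a 95% counting interval of 2309 to 32728. Leaving out planula replicate 1 gave a log2 fold change of 13.55 for gene16070. The fit without planula replicate 2 gave 13.51 for gene4987 on the log2 scale. The groups did not overlap in any of these genes.

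Whether any of these changes depended on settling at 45 m was asked by testing translocated against control juveniles of the same age, both of which came from the same shallow reef; both steps share the planula libraries, so their difference reduces to this contrast. A single gene of 25735 (0.00389%) was called, and DESeq2 called 95. In the edgeR fit 1397 genes had an unadjusted p below 0.05, close to the share of 0.05 that this cut passes where nothing differs. The called gene was gene8345, the basic helix-loop-helix repressor, with 31.2, 28.4 and 36.4 CPM in translocated juveniles and 11.4, 14.01 and 12.6 CPM in control juveniles (log2 fold change 1.33 ± 0.17, adjusted p = 0.00346). It did not pass when control replicate 1 or 3 was left out (adjusted p = 0.0845 and 0.0598), in the fit of only the 6 libraries compared (0.0662) and with library totals (0.132). Set against planulae, control juveniles had 5396 genes higher (21.0%) and 4652 lower (18.1%). Some of the skeletal and larval genes described above had these values at 5 m (SD, n = 3 each). In control juveniles gene18335 averaged 3175 ± 709.7 CPM and the aspartic acid-rich gene5242 503 ± 149 CPM. Vitellogenin averaged 2876 ± 1258 CPM there, and the GABA receptor gene6990 0.123 ± 0.213 CPM. None of these 4 genes was called between the juvenile groups, which does not show that their levels were equal. At 60 days the translocated juveniles averaged 728 ± 426 CPM for gene18335, 2401 ± 1335 CPM for vitellogenin and 262 ± 39.3 CPM for gene8345.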

How the data were processed

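The authors deposited a table of raw read counts per gene for 24 libraries in 8 groups of 3, read as whole-number counts. FastQC, MultiQC, cutadapt, Trimmomatic and DESeq2 are named in the submitters' processing notes; the aligner, the counter, the genome build, strand handling and any collapsing of molecular identifiers were not given in the sources used here. Per the labels' protocols, the poly(A) fraction came from 500 ng of RNA per sample, with integrity numbers above 7.7. Product names came from the annotated gene table that the authors deposited, joined on its gene identifiers.

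Counts were fitted in edgeR 4.0.16 (limma 3.58.1, R 4.3.3) by the quasi-likelihood test over all 24 libraries, with filterByExpr, TMM scaling, 16 residual degrees of freedom and Benjamini-Hochberg adjustment over 25735 genes at 0.05. A standard error is the absolute log2 fold change divided by the square root of F. The scripts were tested on simulated counts. Alternatives were RLE scaling, library totals, no filter, DESeq2 1.42.0, the libraries compared alone, a replicate block, glmTreat beyond 2-fold, and leaving out each library. Named genes were the 12 largest rises and 12 largest falls by fold change among called genes with an informative product name, at least 10 CPM on average in the higher group and no overlap; the 4 largest gains and 4 largest losses in mean CPM; the 3 rises and 3 falls with the smallest p in each list; and every called gene, up to 10, between translocated and control juveniles. Whole small families are also described. The lists, families and comparison were chosen with earlier results of these data known. Intervals and floors, 3 counts per library, cover counting error only.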

Additional observations from a re-analysis of the deposited data

Results flagged for a closer look

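The change of gene8345, named class E basic helix-loop-helix protein 40, differed between the juveniles settled at 45 m and those settled at 5 m. It stood at 31.2, 28.4 and 36.4 CPM in translocated juveniles and 11.4, 14.01 and 12.6 CPM in control juveniles, both below the 234, 237 and 226 CPM of planulae. The test of the difference gave a log2 fold change of 1.33 ± 0.17 (adjusted p = 0.00346, edgeR's quasi-likelihood test), and all 3 translocated libraries lay above all 3 control libraries. Adjusted p ranged from 1.62e-13 in DESeq2 to 1 for a change beyond 2-fold, and leaving out control replicate 1 or control replicate 3 ended the call (0.0845 and 0.0598). At 60 days the means were 262 ± 39.3 CPM in translocated juveniles and 64.3 ± 7.32 CPM in control juveniles (SD, n = 3 each). The hour at which each depth was sampled is not given in the sources used here, and its part in the difference was not tested.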

How the results depend on the processing

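The number of genes called between translocated juveniles and planulae, 5672 higher and 5022 lower, stayed within 1.5 times under RLE scaling, DESeq2, no filter, a fit of the 6 libraries compared, and both replicate blocks. Library totals gave 12443 higher and 1919 lower, because this scaling moves the median of all genes by 0.95 on the log2 scale. A change beyond 2-fold was called for 5387 genes, 3217 higher and 2170 lower. Leaving out 1 library gave 4456 to 5610 higher, 4139 to 4834 lower and 8828 to 10444 in all. For members of the gene lists, 914 higher and 814 lower, library totals gave 1501 and 444, glmTreat 612 and 478, and leaving out 1 library 726 to 908 higher and 720 to 791 lower. Of 168 named genes, library totals ended 10 calls and reversed 1: elongation of very long chain fatty acids protein 5-like (gene20645) had a log2 fold change of -0.68 with TMM and 0.29 with library totals. The 2-fold rule ended 16 calls, and 5 named genes lost theirs when some single library was left out. The fold moved more than 1.5 times for 31 named genes, 19 of them without planula replicate 1.

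Between translocated and control juveniles, 1 gene was called; library totals and the 2-fold rule gave 0, the 6 libraries compared 5 (2 higher, 3 lower), DESeq2 95 (83 higher, 12 lower), and leaving out 1 library 0 to 8, where 8 came without translocated replicate 1 and 0 without control replicate 1 or 3. The cause of these differences was not tested.

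The labels do not say whether samples with the same replicate number were paired. Deviations from the group means of juveniles and planulae with the same number correlated at -0.148, 0.0512 and -0.0790. Those of translocated and control juveniles correlated at 0.257, -0.0429 and -0.0949. With 3 libraries per group such values cannot decide whether samples were paired. With the replicate block over all libraries 5633 genes were higher and 5072 lower, 10705 in all, and with the block over only the 6 libraries compared 4526 and 4523, 9049 in all. Between translocated and control juveniles the replicate block gave 1 gene over all libraries and 30 (25 higher, 5 lower) over the 6 libraries. For list members the block gave 911 higher and 816 lower, or 790 and 785 with 6 libraries.

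Fold changes of genes nearly absent from 1 group rest on few counts and are imprecise at this depth.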

Other observations

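The gene families of at least 40 tested genes that received no account above, a size set after the values were seen, did not share a direction in translocated juveniles relative to planulae; of all genes 22.0% rose and 19.5% fell, with a median log2 fold change of 0.17. Fibroblast growth factor receptors included 21 rises and 4 falls among 62 (33.9% and 6.45%, median 0.94), and Notch, jagged and delta genes, of a cell contact signalling pathway, 15 rises and 3 falls among 43 (34.9% and 6.98%, median 1.20); 1 Notch group gene fell without translocated replicate 2. TRAF adaptors of immune receptors included 22 rises and 7 falls among 89 (24.7% and 7.87%, median 0.82), NACHT and NLR proteins 21 rises and 7 falls among 92 (22.8% and 7.61%, median 0.57), and ficolins and lectins 18 rises and 7 falls among 73 (24.7% and 9.59%, median 0.04); the shares of rises in these 3 families lay near that of all genes and the shares of falls below it. Without translocated replicate 1 or 2 the ficolins and lectins had 4 or 3 falls. Amine and melatonin receptors included 40 rises and 46 falls among 178 (22.5% and 25.8%, median 0.24), GABA and glycine receptors 14 rises and 20 falls among 59 (23.7% and 33.9%, median -0.0088), glutamate receptors 11 rises and 8 falls among 40 (27.5% and 20%, median 0.07) and myosin chains 18 rises and 13 falls among 62 (29% and 21%, median 0.21). The rises among GABA and glycine receptors numbered 8 to 9 without translocated replicate 3, planula replicate 2 or planula replicate 3, and those among glutamate receptors 5 to 6.

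Some values of translocated and control juveniles lay apart without passing edgeR's test over all genes; these genes were chosen after their values were seen. The thyrotroph embryonic factor-like gene1874 had 6.39, 10.96 and 11.7 CPM in translocated juveniles and 2.76, 3.32 and 2.23 CPM in control juveniles (log2 fold change 1.81 ± 0.42, adjusted p = 0.316 in edgeR and 0.00644 in DESeq2). The related gene10071 had 66.03, 79.9 and 83.2 CPM in translocated juveniles and 32.7, 38.1 and 32.8 CPM in control juveniles (log2 fold change 1.15 ± 0.27, adjusted p = 0.316 in edgeR and 0.0071 in DESeq2). Cryptochrome-1-like gene17590 had 247, 229.7 and 228 CPM in translocated juveniles and 132, 173 and 97.99 CPM in control juveniles (log2 fold change 0.81 ± 0.18, adjusted p = 0.284 in edgeR and 0.00221 in DESeq2). In all 3 genes the juveniles at 45 m lay above those at 5 m in every library. The galaxin-like gene12581 had 37.2, 266 and 347 CPM in translocated juveniles and 10.8, 17.3 and 6.01 CPM in control juveniles (log2 fold change 4.25 ± 1.13, adjusted p = 0.472 in edgeR and 0.0105 in DESeq2). A green fluorescent protein-like pigment gene (gene28123) had 42.4, 25.1 and 13.8 CPM in translocated juveniles, 463, 255 and 368 CPM in control juveniles and 39.7, 22.9 and 18.6 CPM in planulae (translocated against control: log2 fold change -3.74 ± 1.33, adjusted p = 0.771 in edgeR and 0.124 in DESeq2). At 60 days its means were 241 CPM in translocated juveniles and 3299 CPM in control juveniles.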
